A study of Mus musculus with 16 samples.

Results

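The data described here are the response to stimulation of mouse CD4-positive T cells that were given no MALT1. They comprised 8 of the 16 arrays of the series, namely the 4 titled as mock stimulated and the 4 titled as isoform A unstimulated, set against each other mouse by mouse. All cells came from 4 MALT1-deficient mice on the C57BL/6 background, whose age is not given in the sources used here, and total RNA of each sample was hybridised to a 1-colour Illumina bead array. The mock stimulated cells had received a mock retrovirus and 2.5 h of stimulation with CD3/CD28. The isoform A unstimulated cells, called resting cells below, had received a retrovirus for MALT1 isoform A and no stimulation. That name means only that they were not stimulated, and whether they were quiescent was not tested. Of 23 mitosis and DNA replication genes, 22 were lower in mock stimulated cells than in them. No resting mock group was part of the design, so stimulation and vector differ together between the 2 groups and cannot be told apart in any difference between them. The remaining 8 arrays were from cells of the same mice that carried MALT1 isoform A or isoform B and were stimulated for 2.5 h, 4 arrays each. They gave a second comparison in which stimulation was the same and the presence of MALT1 differed. The promoter that drives the vector and the share of cells that carried it are not given in the sources used here.

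T cells recognise antigen through the T cell receptor, whose signal splits into calcium and NFAT, RAS and MAP kinase, and protein kinase C branches. MALT1 acts in the last of these. It joins BCL10 and a CARD protein in the CBM complex, which recruits the IKK kinases that free NF-kB, and it is also a protease that cuts several inhibitors and RNA-binding proteins. NFAT, AP-1 and NF-kB bind together at many cytokine genes. The titles of the samples and series name 2 splice isoforms of MALT1, and the mock cells show which part of the response is present when neither was supplied.

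Every array had 1 RNA sample, and the same replicate number stood for the same mouse in all 4 groups. Of 25697 probes, the stimulated arrays had 10247 to 11012 above background, and the resting ones 11239 to 12085. Arrays of a group correlated at 0.985 to 0.9953 across genes, and stimulated and resting arrays lay apart on the leading principal component (83.5% of the variance). All 8 CD4 T cell markers tested, Cd4 and the CD3 chains among them, were above background on all 16 arrays. Among markers of other cells, Cd14, Lyz2, Itgam, Itgax, Adgre1, Fcgr3, Cd8a, Gzmb, Ncr1 and Blnk were above background on none. Ctss, the remaining macrophage and dendritic cell marker on the array, was above background on all 16, as were Cd8b1, Prf1, Nkg7, Klrd1, Klrk1, Ctsw and, of the B cell list, the MHC class II genes Cd74 and H2-Ab1. Other B cell markers differed between the 2 groups compared. Cd79b and H2-Eb1 were above background on 4 resting and 0 mock arrays, Ms4a1 on 4 and 2, H2-Aa on 2 and 0, Pax5 on 1 and 0 and Cd79a on 0 and 0. Of the CD8 and cytotoxic list, Gzma was above background on 3 resting and 1 mock arrays and Gzmk on 1 and 0. The summed linear signal of the 7 genes tested of that list was 14050 to 22250 in mock and 14550 to 21870 in resting cells. For the 8 CD4 T cell markers it was 38410 to 41820 and 55290 to 56580. Which cells carried the CD8 and cytotoxic transcripts was not tested. The probe for Malt1 was above background on 4 of the 16 arrays, 2 of them mock stimulated, at raw signals of 120 to 140, and its part of the transcript is not given, so it checks neither the deletion nor the vectors.

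Stimulated mock cells differed from resting cells in most of the genes measured. Of 8480 genes tested, 5880 (69.3%) passed an adjusted p of 0.05 in limma's moderated test with the mouse as a block. Of these, 2672 (31.5%) were higher in mock stimulated cells and 3208 (37.8%) were lower, and 5687 of the 5880 had the same sign in all 4 mice. A difference of at least 1 on the log2 scale, which is a doubling or a halving, was reached by 2388 genes (28.2%), 1053 higher and 1335 lower. Within mice 1 and 2, whose arrays had lower maximum signals, 5422 genes passed the test, and within mice 3 and 4, 5105 passed. The split depended on the scaling: when each array was scaled to its median in place of quantile normalization, 2054 genes were higher and 3778 lower, and the median of all genes moved to -0.16, against -0.01 in the quantile-normalized values. With the mouse as a block, p-values measure how far group differences vary from mouse to mouse, pooled over all 4 groups. In bulk RNA fewer cells of a type and less RNA per cell cannot be told apart.

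The same resting arrays, set against cells stimulated in the presence of isoform A, gave 5939 genes (70%) past the threshold. No resting mock cells were measured, so the responses can be compared only if those matched resting isoform A cells, which was not tested. With the same resting arrays in both, subtracting them leaves the difference between the mock stimulated and isoform A stimulated arrays. That difference passed the test for 745 genes (8.79%), with 370 (4.36%) higher and 375 (4.42%) lower in mock cells. It passed for 124 genes within mice 1 and 2, of which 109 were among the 745. Within mice 3 and 4 it passed for 671, of which only 335 were among the 745. With all 4 mice it reached 1 on the log2 scale for 55 of the genes called, 18 higher and 37 lower in mock cells. Against isoform B stimulated cells, 338 genes (3.99%) differed. For 6185 of the 8480 genes (72.9%) the 95% confidence interval of the mock minus isoform A difference lay between -0.5 and 0.5, so a larger difference than 0.5 was outside the interval. The number of genes called against isoform A leaned on single mice, since it was 239 without mouse 3 and 316 without mouse 4.

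Of the 1053 genes that rose by at least 1 in mock cells, 115 (10.9%) were lower in mock than in isoform A stimulated cells and 63 (5.98%) were higher. A further 691 (65.6%) were not called and had an interval within 0.5 of 0, and 184 (17.5%) were not called with an interval that reached past 0.5, so that for these a larger difference lay inside the interval. Of the 1335 genes that fell by at least 1, 53 (3.97%) were lower and 88 (6.59%) higher in mock cells, 902 (67.6%) were uncalled with an interval within 0.5, and 292 (21.9%) had a wider interval. Of all genes tested, 4.42% were lower, 4.36% higher, 72% uncalled with an interval within 0.5 and 19.2% uncalled with a wider one. The same mock arrays enter both the choice of these genes and this comparison. Genes that did not change by at least 1 in mock cells are left out, so these shares do not measure how much of the response needs MALT1. Among the 50 genes that rose by at least 4, the interval lay within 0.5 for 24, and 12 were lower and 3 higher in mock than in isoform A cells. Among the 14 that fell by at least 4, the interval lay within 0.5 for 6, and 2 were higher and 0 lower in mock cells.

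**Figure D1:**
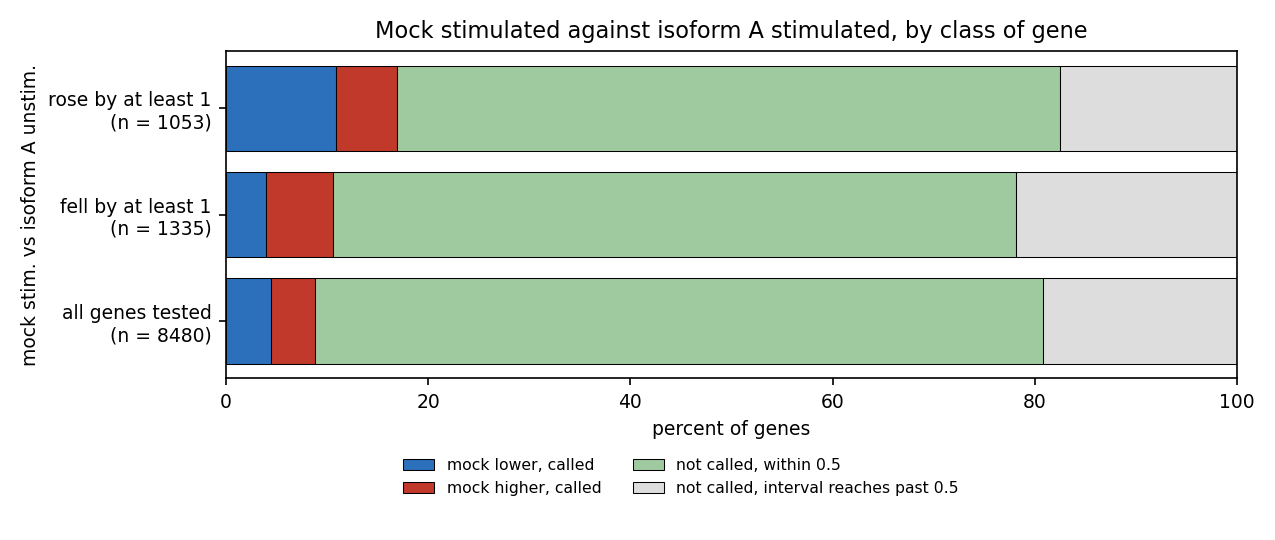
Share of genes, in percent, by the outcome of the mock stimulated minus isoform A stimulated comparison, for genes that rose or fell by at least 1 (log2) in mock stimulated against isoform A unstimulated cells and for all 8480 genes tested. The segment of uncalled genes whose 95% interval lies within 0.5 takes 65.6% of the genes that rose, 67.6% of those that fell and 72% of all genes. The segment of genes lower in mock takes 10.9%, 3.97% and 4.42%.

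The direction of the response of mock cells differed between the gene lists examined. Ribosome biogenesis genes rose (17 higher, 0 lower of 17 tested, median log2 difference 1.68), as did most cytokines and chemokines (23 higher and 1 lower of 27, median 1.72) and most immediate early and AP-1 factors (18 and 2 of 22, median 2.09). Mitosis and DNA replication genes fell (0 higher and 22 lower of 23, median -1.75), as did quiescence and homing genes (2 and 12 of 14, median -1.74). T cell receptor proximal signalling genes were split (9 higher and 9 lower of 20, median -0.10), and the CBM complex and IKK list had 4 higher and 6 lower of 15 (median -0.20), or 3 and 9 (median -0.60) under median scaling. These counts stand against 31.5% of all genes higher and 37.8% lower, with a median of -0.01. Members and lists were chosen with earlier results of these data known, so here and below list counts describe the lists and do not test them.

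**Figure D2:**
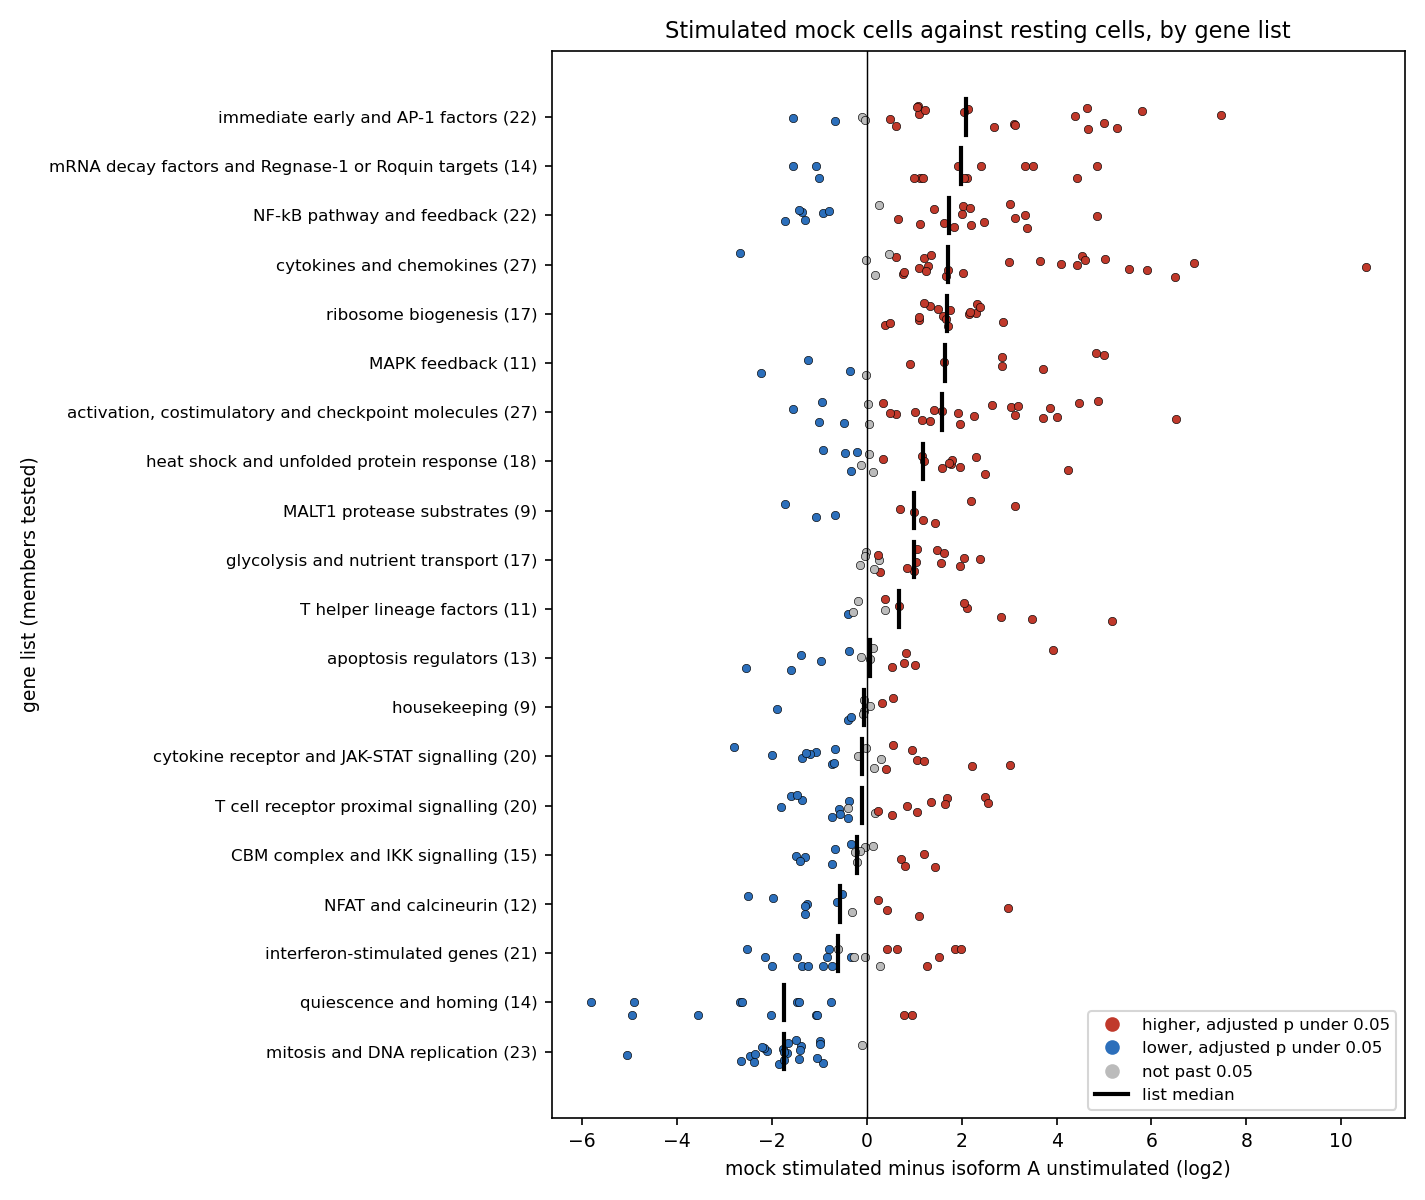
Each point is 1 gene's mock stimulated minus isoform A unstimulated difference (log2, fit over 4 mice), in rows by gene list with the number of members tested, red for higher, blue for lower and grey for genes not past an adjusted p of 0.05; bars mark list medians. Medians run from 2.09 for immediate early and AP-1 factors down to -1.75 for mitosis and DNA replication genes.

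The largest rise was that of Il3, a growth factor for blood cell precursors. Its raw signals were 38404, 34632, 32138 and 29859 in mock stimulated cells of mice 1 to 4, against 119, 128, 129 and 129 in resting cells. In resting cells it was above background on none of the 4 arrays, and the normalized signal was at least 1212-fold higher in mock cells (limma adjusted p = 3.53e-17). Its probe ranked 1, 1, 11 and 11 among 25697 probes by raw signal in mock cells of mice 1 to 4, and 1, 1, 2 and 2 in isoform A stimulated cells. In isoform A stimulated cells the raw signals were 35577, 34329, 39979 and 41774, so mock cells were the higher ones in mice 1 and 2 and the lower ones in mice 3 and 4. In mice 1 and 2 the probe was the brightest of both arrays, and quantile normalization then gives both the same value, so the normalized data do not measure the difference between mock and isoform A cells for this gene.

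Egr2, a zinc finger transcription factor induced by receptor signalling, had log2 intensities of 13.42, 13.42, 13.21 and 13.43 in mock stimulated cells, against 5.72, 5.48, 6.38 and 6.06 in resting cells. Its level was 176-fold higher (7.46 ± 0.15 on the log2 scale, SE, limma adjusted p = 3.55e-14), with no overlap between the groups. Csf2, which encodes the cytokine GM-CSF, had 12.99, 12.96, 13.36 and 13.09 in mock cells, against 6.04, 5.67, 6.46 and 6.64 at rest, a 119-fold rise. Isoform A stimulated cells had 13.72 to 13.87 for Csf2, and all 4 mock arrays lay below them (-0.69, adjusted p = 0.00832). That call was lost when mouse 3 was left out of the fit. Tnfsf14, the TNF family member LIGHT, had 12.91, 12.78, 12.91 and 12.91 in mock cells, against 6.23, 6.18, 6.52 and 6.48 in resting cells, a 92.2-fold rise. Pou2af1, a coactivator of octamer-binding factors, rose 64.1-fold, with 12.25, 12.40, 12.13 and 12.27 in mock cells and 6.17, 6.37, 6.18 and 6.32 in resting cells.

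The other genes among the 12 largest rises were Ccl1 (6.49), Ccl3 (5.91), the RIKEN gene 1810009J06Rik (7.06), Sphk1 (6.20), Rgs16 (5.95), Bdh2 (5.82) and Gch1 (5.72). Ccl1 and Ccl3 are chemokines, Sphk1 makes sphingosine 1-phosphate, Rgs16 shortens G protein signals and Gch1 opens the synthesis of tetrahydrobiopterin. Sphk1 and Bdh2 were above background on 1 of 4 resting arrays, and a second Sphk1 probe differed by only 0.19. Of the 12 genes, 3 were called lower in mock than in isoform A stimulated cells, namely Csf2, Tnfsf14 (-0.31, adjusted p = 0.0373) and Sphk1 (-0.74, adjusted p = 0.00449). Of all genes tested, 4.42% were called lower, as were 10.9% of those that rose by at least 1. The Tnfsf14 call did not hold without the replicate block or once mock mouse 3 was left out (adjusted p = 0.126). Sema7a, a membrane-anchored semaphorin, rose by 5.64 with an interval against isoform A of -0.34 to 0.20, although 2 further probes of the gene spanned 1.16 to 4.79.

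**Figure D3:**
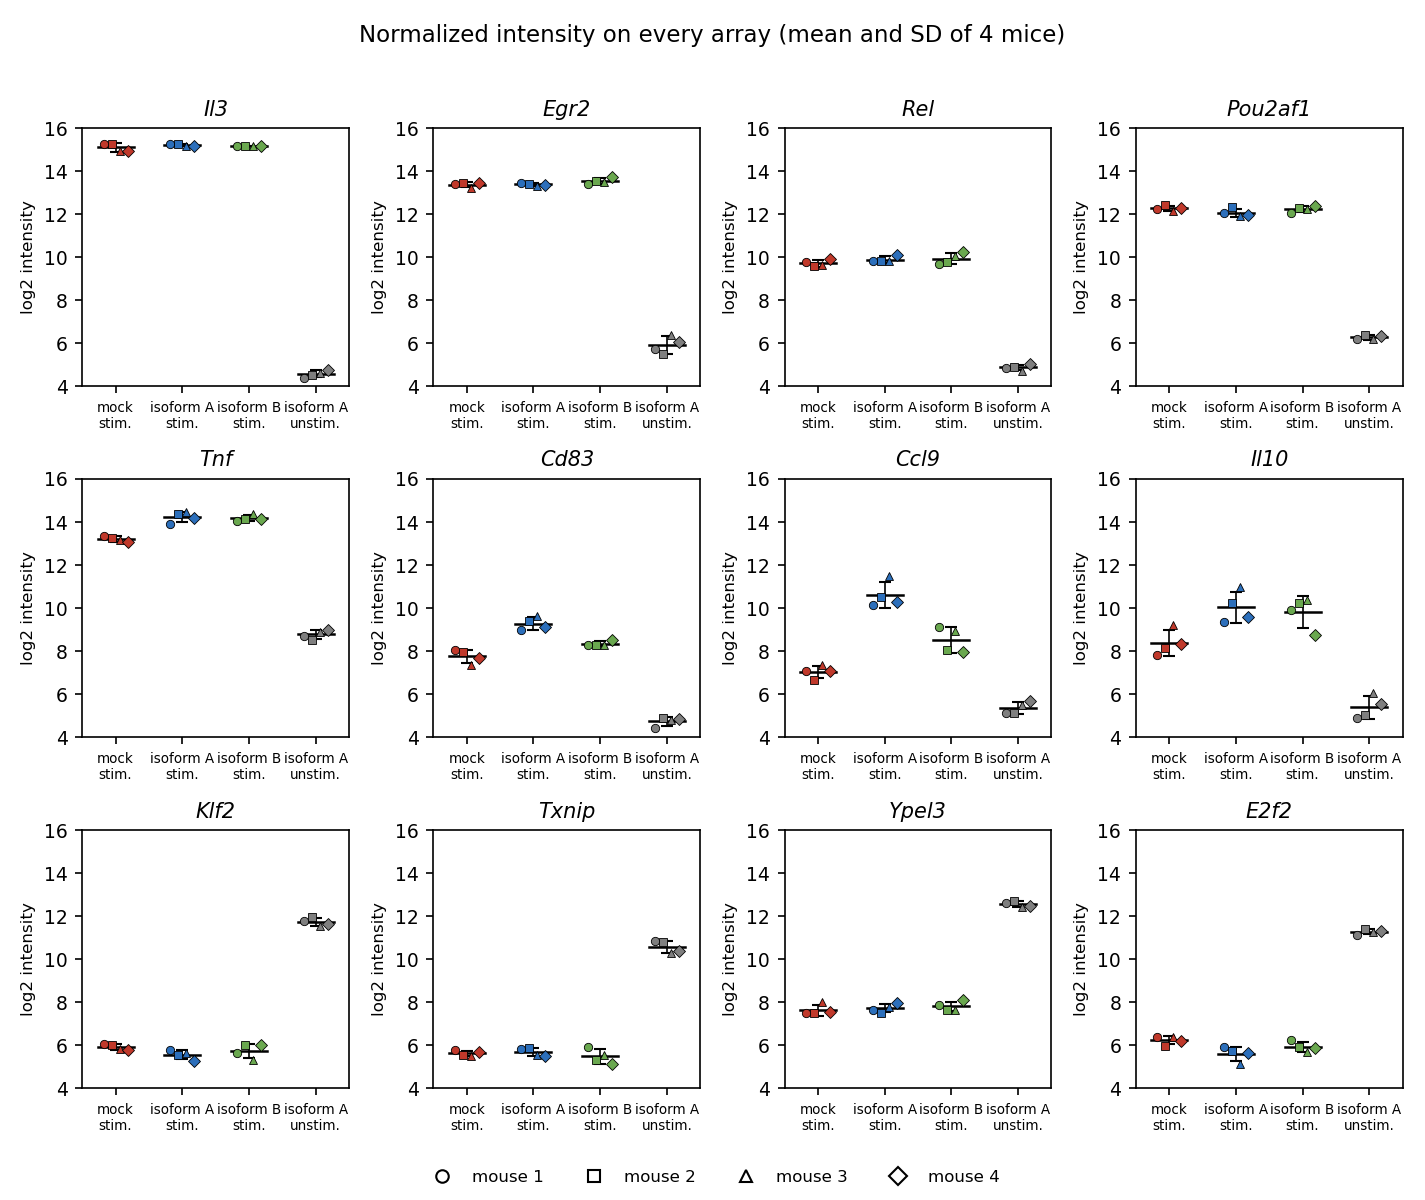
Normalized log2 intensity of 12 genes on all 16 arrays, 1 symbol per mouse, with the mean and SD of 4 mice, in mock stimulated, isoform A stimulated, isoform B stimulated and isoform A unstimulated cells. The mock arrays overlap the isoform A stimulated arrays for Egr2, Rel and Pou2af1, and for Il3, whose values at the top rank are set by the normalization, while Tnf, Cd83, Ccl9 and Il10 lie lower in mock than in isoform A stimulated cells and Klf2, Txnip, Ypel3 and E2f2 lie far below resting cells.

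Among the genes that fell, Klf2 had the largest fall. It encodes a factor that keeps T cells quiescent and recirculating. Its log2 intensities were 6.05, 6.00, 5.80 and 5.75 in mock stimulated cells, against 11.76, 11.96, 11.55 and 11.63 in resting cells, so resting cells were 56.7-fold higher (limma adjusted p = 1.55e-13). The difference from isoform A stimulated cells was 0.34 (interval 0.06 to 0.63) and did not pass the adjusted test. Txnip, an inhibitor of thioredoxin and glucose uptake, had 5.75, 5.54, 5.50 and 5.68 in mock cells, against 10.82, 10.80, 10.30 and 10.35 in resting cells. Its interval against isoform A was -0.33 to 0.21. E2f2, a cell cycle transcription factor, had 6.39, 5.97, 6.36 and 6.17 in mock cells, against 11.12, 11.39, 11.26 and 11.31 at rest, while its other probes differed by -4.68 to -0.73. E2f2 and Fam78a (fell by 5.06) were the 2 of these 12 genes called higher in mock than in isoform A stimulated cells, by 0.63 and 0.42, and neither call held once mock mouse 3 was left out (adjusted p = 0.0627 and 0.125). Of all genes tested, 4.36% were called higher, as were 6.59% of those that fell by at least 1.

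The remaining large falls were those of Ypel3 (-4.92), Pdlim4 (-4.23), Tbc1d10c (-4.21), Ccnd3 (-4.16), Tspan32 (-4.11), Pxylp1 (-4.09), BC147527 (-4.07) and N4bp2l1. N4bp2l1 was above background on none of the mock arrays and at least 18.3-fold higher in resting cells, and BC147527 was above background on 1 of the 4 mock arrays. Tbc1d10c encodes carabin, an inhibitor of calcineurin and RAS, and Ccnd3 encodes cyclin D3. A second Ypel3 probe differed by -0.28, and other Ccnd3 probes by -3.37 to -0.24, so the probes of these genes disagree on the size of the fall.

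Immediate early genes are those transcribed within minutes of a signal from factors already in the cell. Besides Egr2, the largest rises were those of the nuclear receptors Nr4a2 and Nr4a3, which respond to the receptor and calcium signal. Nr4a2 had 10.48, 10.26, 10.45 and 10.46 in mock stimulated cells, against 4.85, 4.39, 4.59 and 4.63 in resting cells, where it was above background on none of the arrays, and it was at least 47.2-fold higher. Nr4a3 had 9.70, 9.51, 9.88 and 9.95 in mock cells, against 4.41, 4.57, 4.45 and 4.50 at rest, and was at least 30-fold higher. Egr1, a sister factor of Egr2, rose by 5.01 ± 0.16, and Atf3, a stress-induced factor of the ATF family, rose by 4.67 ± 0.13. Klf6 (-1.55) and Batf (-0.67), which encode a zinc finger factor and an AP-1 partner of JUN proteins, fell. Against isoform A stimulated cells, 3 of the 22 list members were higher in mock cells and 1 was lower, against 4.36% and 4.42% of all genes. Named after their values were seen, these were Fos (0.57), Zfp36 (0.67) and Jund (0.50), and Myc (-0.34). The interval lay within 0.5 for 10 of the 22, against 72.9% of all genes.

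The sequences of 6 promoters are shown because these genes had the largest rises of the immediate early and of the NF-kB list among genes whose sequence could be printed here. Each is the 250 bases before the transcription start, from RefSeq on GRCm38.p6, 5′ to 3′ on the gene's strand. Egr2 is at chr10:67537619-67537868 on the plus strand (the middle of 5 listed starts), Nr4a2 at chr2:57124004-57124253 on the minus strand and Nr4a3 at chr4:48045055-48045304 on the plus strand. Rel is at chr11:23770970-23771219 on the minus strand, Bcl2a1d at chr9:88731851-88732100 on the minus strand and Nfkbid at chr7:30422156-30422405 on the plus strand (the middle of 3 listed starts). Capitals mark matches on either strand to a cAMP response element (TGACGTCA), an AP-1 site (TGANTCA), a CArG box, which binds serum response factor, or a kB site, which binds NF-kB.
Egr2: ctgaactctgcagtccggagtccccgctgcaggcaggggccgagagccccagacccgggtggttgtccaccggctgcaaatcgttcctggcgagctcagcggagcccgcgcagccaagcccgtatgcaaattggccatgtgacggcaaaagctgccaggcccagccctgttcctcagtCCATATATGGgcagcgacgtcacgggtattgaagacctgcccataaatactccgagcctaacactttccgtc
Nr4a2: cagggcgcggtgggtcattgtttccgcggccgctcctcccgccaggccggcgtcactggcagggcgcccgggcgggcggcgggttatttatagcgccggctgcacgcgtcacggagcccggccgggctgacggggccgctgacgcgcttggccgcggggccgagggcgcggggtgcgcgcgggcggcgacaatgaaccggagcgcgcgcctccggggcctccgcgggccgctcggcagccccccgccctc
Nr4a3: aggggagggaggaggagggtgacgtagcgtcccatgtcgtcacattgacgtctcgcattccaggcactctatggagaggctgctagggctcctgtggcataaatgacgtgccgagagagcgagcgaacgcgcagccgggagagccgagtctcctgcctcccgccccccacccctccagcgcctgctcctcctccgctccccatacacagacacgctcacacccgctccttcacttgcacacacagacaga
Rel: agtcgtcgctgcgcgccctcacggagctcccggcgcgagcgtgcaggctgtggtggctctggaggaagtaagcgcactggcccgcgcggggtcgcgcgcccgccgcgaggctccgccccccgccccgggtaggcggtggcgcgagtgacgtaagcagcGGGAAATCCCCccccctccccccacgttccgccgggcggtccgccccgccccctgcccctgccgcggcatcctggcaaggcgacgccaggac
Bcl2a1d: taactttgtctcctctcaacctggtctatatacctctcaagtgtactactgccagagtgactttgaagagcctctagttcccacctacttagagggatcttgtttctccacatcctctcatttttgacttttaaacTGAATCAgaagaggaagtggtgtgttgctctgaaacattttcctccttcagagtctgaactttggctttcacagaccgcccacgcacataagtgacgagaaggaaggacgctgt
Nfkbid: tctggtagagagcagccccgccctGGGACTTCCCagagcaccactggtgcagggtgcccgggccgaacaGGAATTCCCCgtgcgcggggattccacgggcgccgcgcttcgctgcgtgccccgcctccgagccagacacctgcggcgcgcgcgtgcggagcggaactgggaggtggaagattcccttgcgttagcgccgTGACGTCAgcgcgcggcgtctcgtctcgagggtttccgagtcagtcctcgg
In Egr2 a CArG box lay 72 to 63 bases before the start. No match was found in these windows of Nr4a2 and Nr4a3. Rel had 2 overlapping kB matches at 92 to 82 bases before the start, Nfkbid had kB matches at 226 to 217 and 181 to 172 bases and a cAMP response element at 51 to 44 bases, and Bcl2a1d had an AP-1 match at 114 to 108 bases. Of all 32851 windows in the promoter set, 7.25% held a kB match, 6.75% an AP-1 match, 1.55% a cAMP response element and 1.47% a CArG box. A match describes letters only.

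Of 11 feedback genes of the MAP kinase branch, 7 were higher and 3 lower in mock stimulated than in resting cells (31.5% and 37.8% of all genes). Against isoform A 0 were called and 9 had an interval within 0.5, against 8.79% and 72.9% of all genes, so these counts do not set the list apart. Gadd45b, a stress-induced regulator of p38 and JNK signalling, had 10.66, 10.77, 10.45 and 10.70 in mock cells, against 5.62, 5.81, 5.43 and 5.70 in resting cells. Dusp4, a MAP kinase phosphatase, averaged 9.93 ± 0.06 in mock cells and 5.09 ± 0.13 at rest (SD, n = 4 each), and its interval against isoform A was -0.17 to 0.16. Both genes were separated from resting cells in every mouse. Dusp2 (3.71), Spred1 (2.86) and Spry1, all inhibitors of the pathway, rose as well, Spry1 to a level at least 5.52-fold above that of resting cells. Rasgrp1, which activates RAS downstream of the receptor, fell by 2.22, and Dusp10 fell by 1.23.

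In the calcineurin and NFAT list, 4 genes rose and 7 fell of 12 tested (31.5% and 37.8% of all genes), with a median of -0.57. Orai1, the pore of the calcium channel that feeds NFAT, had 12.17, 12.40, 12.09 and 12.12 in mock stimulated cells, against 9.19, 9.37, 9.09 and 9.21 in resting cells, a 7.89-fold rise with an interval against isoform A of -0.18 to 0.15. Its partner Stim1, the calcium sensor of the endoplasmic reticulum, fell by 1.30, and the calcineurin subunit gene Ppp3cc fell by 1.30. Rcan1, an inhibitor of calcineurin and itself an NFAT target, had 7.43, 7.08, 7.08 and 7.38 in mock cells, 8.18, 8.08, 8.41 and 8.31 in isoform A stimulated cells and 6.81, 6.82, 6.89 and 6.78 at rest. Mock cells lay below isoform A cells in every mouse (-1.0, adjusted p = 7.19e-05) and below isoform B cells (-0.96, adjusted p = 0.000196). The rise of Rcan1 over resting cells (0.42, adjusted p = 0.0016) turned to -0.05 under median scaling.

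NF-kB genes rose in mock cells, and the list is also one in which many members stayed below the level of isoform A cells. Of 22 tested, 15 were higher and 6 lower than in resting cells, against 31.5% and 37.8% of all genes. In the comparison with isoform A stimulated cells, 0 were higher and 11 lower, against 4.36% and 4.42% of all genes. Against isoform B, 0 were higher and 3 lower, where 173 were higher and 165 lower of all 8480 genes. The median difference from resting cells was 1.74 in mock cells and 2.02 in isoform A stimulated cells, with the same resting arrays in both. Since the list was chosen with earlier results of these data known, its counts are not a test of NF-kB genes as a set.

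Rel, the c-REL subunit that is itself transcribed on activation, had 9.75, 9.58, 9.62 and 9.93 in mock stimulated cells, against 4.86, 4.90, 4.70 and 5.00 in resting cells, of which 3 were above background. The 28.9-fold rise had an interval against isoform A of -0.35 to 0.03. Nfkbid, a nuclear IkB protein that works with c-REL, had 12.88, 12.85, 12.51 and 12.67 in mock cells, against 9.55, 9.41, 9.33 and 9.26 at rest, a 10.1-fold rise with an interval of -0.46 to -0.02. For both genes the mock and resting arrays were far apart. Relb, a subunit of the alternative branch and a MALT1 substrate, had 9.38, 9.41, 9.35 and 9.36 in mock cells, 9.78, 9.88, 10.05 and 9.97 in isoform A stimulated cells and 7.33, 6.95, 7.13 and 7.29 in resting cells. It rose by 2.20, and its difference from isoform A cells was -0.55 (adjusted p = 0.00254), with no overlap.

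Cd83, a surface protein of activated lymphocytes and an NF-kB target, had 8.03, 7.96, 7.36 and 7.67 in mock stimulated cells, 8.98, 9.38, 9.63 and 9.13 in isoform A stimulated cells and 4.42, 4.87, 4.78 and 4.85 at rest, where 1 of 4 arrays was above background. The mock response was 3.02 ± 0.16 (SE), its difference from isoform A cells was -1.52 (adjusted p = 0.000129), and the isoform B arrays, at 8.26 to 8.53, were closer to mock (-0.58, adjusted p = 0.0692). Tnfaip3, which encodes the NF-kB inhibitor A20, a MALT1 substrate, rose by 3.13 and had 9.05, 8.95, 8.93 and 9.09 in mock cells, below 9.23 to 9.63 in isoform A cells, with an adjusted p of 0.0531. Bcl2a1d, of an anti-apoptotic family whose near-identical copies a probe may not separate, rose 10.3-fold and differed by -0.53 from isoform A cells, a call lost without mouse 3 and without mouse 4. Tnip1, an A20 partner, fell by 1.44 in mock cells and was -0.56 against isoform A cells (adjusted p = 0.00022), although its other probes fell by less (-0.91 to -0.29). Cyld (-1.73), Birc2 (-1.37) and Bcl3 (-1.31), a deubiquitinase, a ubiquitin ligase and a nuclear IkB protein, fell with no call against isoform A.

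In the CBM complex and IKK list, 4 genes were higher and 6 lower of 15 tested, against 31.5% and 37.8% of all genes. Bcl10, the adaptor that binds MALT1, had 11.61, 11.59, 11.51 and 11.68 in mock stimulated cells, against 10.16, 10.09, 10.13 and 10.24 in resting cells, a 2.72-fold rise with no overlap. Traf6 (1.21), a ubiquitin ligase that binds MALT1, and Tab3 (0.81), an adaptor of the kinase TAK1, rose. Map3k7, the TAK1 gene, was 0.71 higher, but not past the threshold under median scaling. Casp8 (-1.50), Prkcq (-1.42), Ikbkg (-1.30), Tab1 (-0.72), Rbck1 (-0.68) and Ikbkb (-0.33) fell, while a second Ikbkg probe gave 0.42. Malt1 (0.14), Pdpk1 (-0.03), Tab2 (-0.26), Rnf31 (-0.20) and Sharpin (-0.14) did not pass the test. The interval against isoform A lay within 0.5 for 12 of the 15 genes, against 72.9% of all genes. Prkcq (0.27) and Tab1 (0.41) were called higher and Rnf31 (-0.41) lower in mock than in isoform A stimulated cells, and all 3 calls were lost without the replicate block.

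Of 9 genes whose proteins MALT1 cleaves, 6 rose and 3 fell in mock cells (31.5% and 37.8% of all genes). Of the 9, 0 were higher and 3 lower than in isoform A stimulated cells (4.36% and 4.42% of all genes). Zc3h12a, the ribonuclease Regnase-1, rose by 0.99 and was -0.56 against isoform A (adjusted p = 0.0209), a call that needed the mock array of mouse 3 (adjusted p = 0.0844 when that array was left out). Rc3h1, which encodes Roquin-1, rose by 1.18, and Zc3h12d fell by 1.07. Among 14 mRNA decay factors and transcripts that Regnase-1 or Roquin bind, 11 rose and 3 fell, again against 31.5% and 37.8% of all genes. Zfp36l1, a factor that binds AU-rich elements, rose by 2.41, and Pim3, a survival kinase, rose by 3.51, both with an interval against isoform A inside 0.5. Icos, a costimulatory receptor and Roquin target, fell by 1.56, with an interval against isoform A of -0.24 to 0.41.

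Cytokine and chemokine genes rose in mock cells, and mock cells were lower than isoform A stimulated cells for 13 of the 27 tested and higher for 2, against 4.42% and 4.36% of all genes. Against isoform B cells, 7 were lower and 2 higher, where 165 were lower and 173 higher of all 8480 genes. The interval against isoform A lay within 0.5 for 5 of the 27, against 72.9% of all genes. The median difference from resting cells was 1.72 in mock and 3.45 in isoform A stimulated cells, over the same resting arrays. This list too was chosen with earlier results of these data known, so its counts are not a test of cytokine genes as a set.

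Ifng, which activates macrophages, had 14.80, 14.44, 14.76 and 14.72 in mock stimulated cells, against 8.61, 8.40, 9.64 and 9.95 in resting cells, a 46.1-fold rise. Its difference from isoform A cells was -0.31, with an interval of -0.80 to 0.18. Tnf, an inflammatory cytokine, had 13.36, 13.27, 13.18 and 13.05 in mock cells, 13.92, 14.35, 14.47 and 14.19 in isoform A stimulated cells and 8.72, 8.51, 8.87 and 8.99 in resting cells. It thus rose 21.7-fold in mock cells and lay 2.03-fold higher in isoform A than in mock cells (-1.02, adjusted p = 0.00023), with no overlap and a like difference from isoform B (-0.96, adjusted p = 0.000791). Il10, an anti-inflammatory cytokine, had 7.81, 8.15, 9.22 and 8.35 in mock cells, 9.34, 10.24, 10.96 and 9.58 in isoform A stimulated cells and 4.90, 5.03, 6.04 and 5.55 at rest. Within every mouse it was lower in mock than in isoform A cells (-1.65, adjusted p = 0.00164).

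Among genes changed by at least 1 in mock cells, those furthest below isoform A stimulated cells were Ccl9, Cd70 and Il23a. Ccl9, a chemokine for myeloid cells, had 7.07, 6.67, 7.35 and 7.06 in mock stimulated cells, with 10.13, 10.51, 11.49 and 10.27 in isoform A stimulated cells, against 5.13, 5.14, 5.49 and 5.68 in resting cells. It was 3.2-fold higher in mock than in resting cells and 11.8-fold higher in isoform A than in mock cells (-3.56, adjusted p = 7.82e-06). Isoform B cells, at 7.98 to 9.11, lay between them. Cd70, the ligand of the costimulatory receptor CD27, had 6.70, 5.82, 5.50 and 7.35 in mock cells, with 9.17, 8.31, 7.85 and 9.71 in isoform A stimulated cells, against 5.03, 4.85, 4.56 and 5.30 at rest. The mice kept their order in all 3 groups, with mouse 4 highest and mouse 3 lowest. Il23a, a subunit of interleukin 23, was above background on all mock arrays at 5.55 to 6.35 and on none of the resting arrays, and isoform A cells had 7.34 to 8.67 (-2.09, adjusted p = 2.86e-05). For Il23a, isoform B cells differed from mock by -0.27, with an adjusted p of 0.499. Osm, an interleukin 6 family cytokine, fell by 2.67 in mock cells and was the 1 member of the list called lower than in resting cells.

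**Figure D4:**
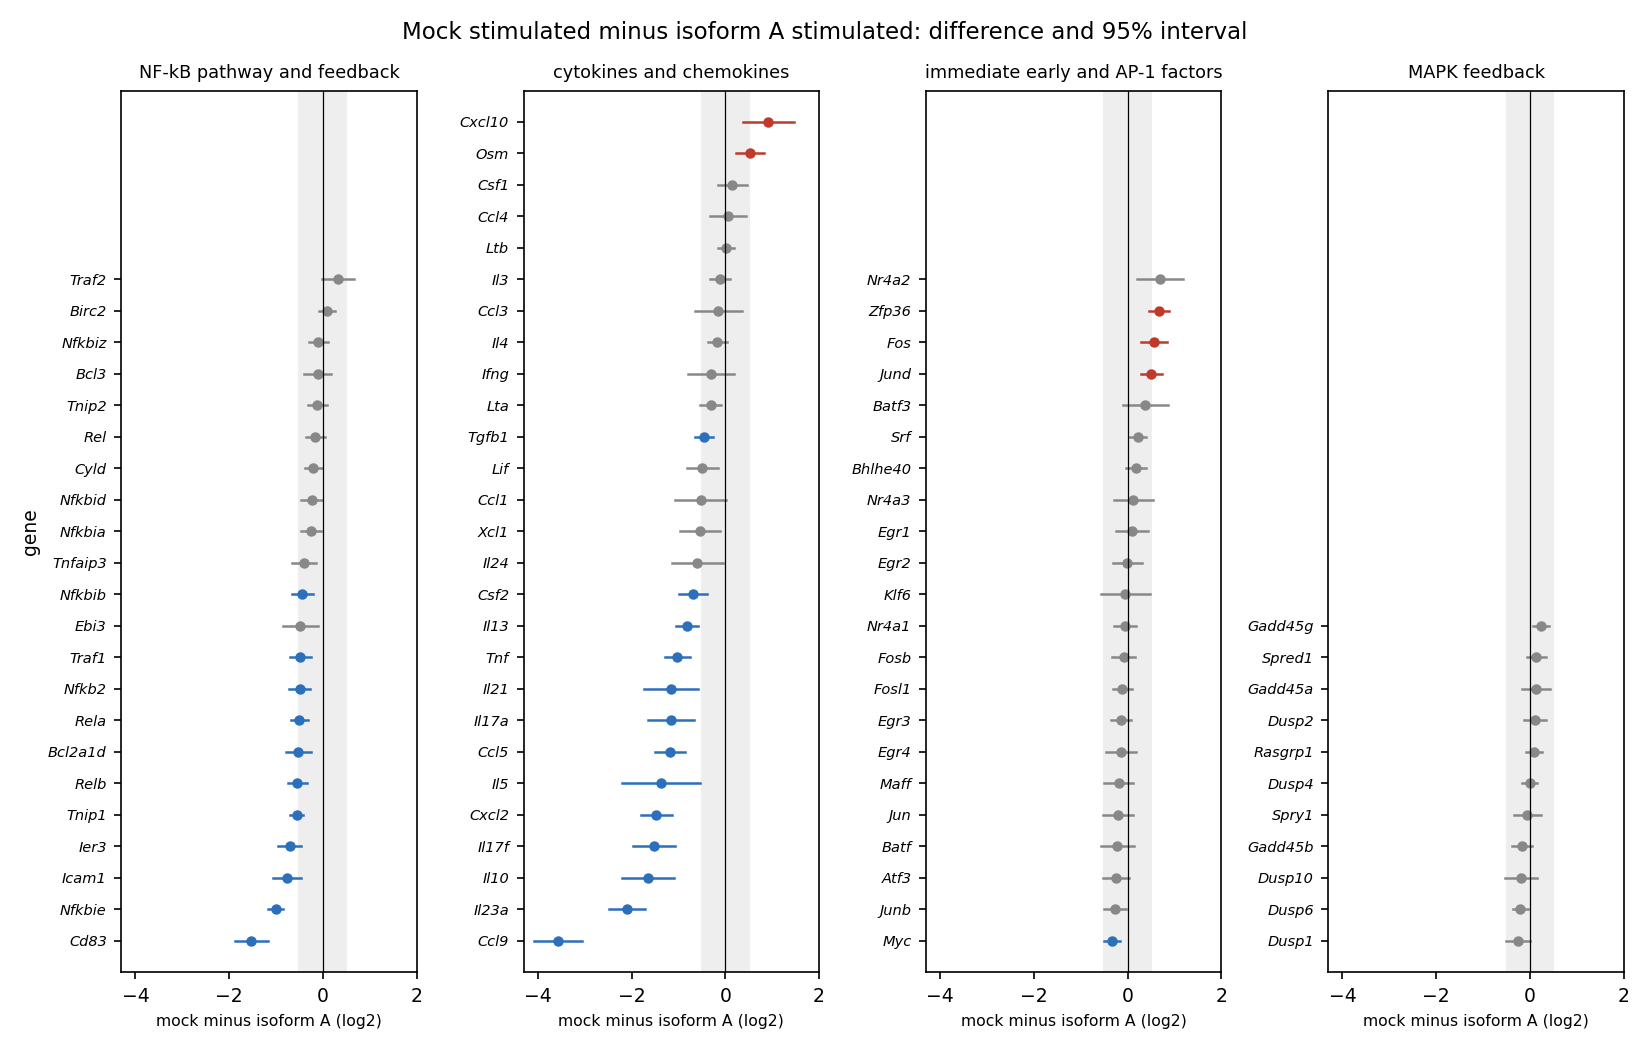
Mock stimulated minus isoform A stimulated difference (log2) with its 95% interval for every tested member of 4 lists, with genes past an adjusted p of 0.05 in red (mock higher) or blue (mock lower) and a grey band from -0.5 to 0.5. NF-kB and cytokine genes reach down to -1.52 for Cd83 and -3.56 for Ccl9. None of the 11 MAPK feedback genes is coloured, against 8.79% of all genes called, so that count does not set the list apart.

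Of 27 activation, costimulatory and checkpoint molecules tested, 21 were higher and 4 lower in mock than in resting cells, against 31.5% and 37.8% of all genes. Set beside isoform A stimulated cells, 2 were higher and 7 lower, against 4.36% and 4.42% of all genes. Cd40lg, the helper signal to B cells, had 9.38, 8.96, 9.0 and 9.03 in mock stimulated cells, 9.81, 9.82, 10.11 and 9.66 in isoform A stimulated cells and 4.92, 5.00, 5.28 and 5.10 in resting cells, a 16.2-fold rise over rest (against isoform A -0.76, adjusted p = 0.00121). Crtam, an adhesion molecule of cytotoxic lymphocytes, rose 22.3-fold and was lower than in isoform A cells in each mouse (-0.63, adjusted p = 0.000943), a call lost without the replicate block. Tnfsf11, the cytokine RANKL, rose by 4.87, and Slamf1, a homotypic receptor, rose by 3.87 with an interval against isoform A of -0.27 to 0.24. Icos (-1.56), Ctla4 (-1.0), Tnfrsf18 (-0.95) and Cd6 (-0.49) fell. Of these, Ctla4 was not called against isoform A with all arrays (interval -1.20 to -0.04), but it was called lower without mouse 3 (-1.09, adjusted p = 0.0091) and without the mock array of that mouse (-0.94, adjusted p = 0.033).

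Receptor-proximal signalling genes moved in both directions. Sla (2.56), an adaptor that dampens receptor signals, Lcp2 (2.48), which encodes the adaptor SLP-76, the kinase genes Fyn (1.69) and Zap70 (1.35) and the phosphatase gene Ptpn22 (1.65) rose, although other probes gave -1.30 to 3.43 for Sla and 0.59 for Fyn. The inhibitory genes Dok2 (-1.81), Ptpn6 (-1.59), Ubash3a (-1.48) and Csk (-1.36) fell. All 4 were higher in mock than in isoform A stimulated cells, by 0.41, 0.68, 0.33 and 0.32, and Ptpn6 alone of these calls held once mock mouse 3 was left out (adjusted p = 0.015). In the list, 6 of 20 genes were higher and 0 lower in mock than in isoform A cells, against 4.36% and 4.42% of all genes.

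In the cytokine receptor and JAK-STAT list, 7 genes rose and 9 fell of 20 (median -0.10), near the 31.5% and 37.8% of all genes. Under median scaling 5 rose and 12 fell (median -0.46). Against isoform A stimulated cells 0 were higher and 6 lower, with 4.36% and 4.42% of all genes so called. The kinase gene Jak2 rose by 3.03 and Il6st, the shared receptor of the interleukin 6 family, by 2.22, while the inhibitors Socs3 (-2.80) and Socs2 (-2.01) and the receptor gene Il7r (-1.37) fell. Among T helper lineage factors, 7 rose and 1 fell of 11, against 31.5% and 37.8% of all genes. Bcl6, the follicular helper factor, had 11.16, 11.50, 11.07 and 11.40 in mock stimulated cells, 10.50, 10.55, 10.35 and 10.91 in isoform A stimulated cells and 6.26, 6.23, 6.13 and 5.87 in resting cells. It rose 35.8-fold and was higher in mock than in isoform A cells in every mouse (0.70, adjusted p = 0.0124), a call lost without mouse 2 and without mouse 3. Tbx21, the factor T-bet, had 10.81, 10.87, 10.88 and 10.74 in mock cells, against 7.26, 7.09, 7.46 and 7.57 in resting cells, and an interval against isoform A of -0.18 to 0.22. Irf8 rose by 2.83 with an interval of -0.28 to 0.39, whereas Irf4 (2.11) and Zbtb32 (2.06) rose and were lower than in isoform A cells by differences of -0.55 and -0.64. Apoptosis regulators were split, 5 higher and 5 lower of 13, which lies near the 31.5% and 37.8% of all genes. Among them Fasl, the death ligand, was up by 3.92 and Bbc3, the p53-induced PUMA, was down (-2.56, with -0.46 to -0.35 by its other probes). Bcl2l1, which encodes the survival protein BCL-XL, rose by 0.54 in mock cells and was -0.68 against isoform A (adjusted p = 0.00216) but -0.05 against isoform B.

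All 17 ribosome biogenesis genes tested rose in mock cells. Against isoform A 0 were called and 16 had an interval within 0.5, where the shares of all genes were 8.79% and 72.9%. Rrp9, a factor of small-subunit processing, had 11.29, 11.36, 10.96 and 11.14 in mock stimulated cells, against 8.54, 8.29, 8.20 and 8.27 in resting cells, a 7.29-fold rise. Rcl1 (2.39), Nop2 (2.32) and Pes1 (2.30), all of ribosome assembly, rose likewise. The list of glycolysis and nutrient transport had 17 genes, of which 12 were higher and 0 lower than at rest (31.5% and 37.8% of all genes). Of these 17, 5 were higher and 1 lower in mock than in isoform A cells (4.36% and 4.42% of all genes). Slc2a3, the glucose transporter GLUT3, had 10.28, 10.30, 10.47 and 10.48 in mock cells, 9.81, 9.12, 9.35 and 9.59 in isoform A stimulated cells and 9.01, 8.66, 8.83 and 8.75 at rest. It was higher in mock than in isoform A cells (0.91, adjusted p = 0.00022) and isoform B cells (0.85, adjusted p = 0.000791), with no overlap with isoform A. Hk2 (1.97), Slc1a5 (2.39), Slc7a5 (2.04) and Slc3a2 (1.63), a hexokinase and amino acid transporter genes, rose too.

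Cell cycle genes were lower in mock stimulated than in resting cells. Cdc6, a replication licensing factor, had 6.42, 6.24, 6.11 and 6.01 in mock cells, against 8.76, 8.85, 8.99 and 8.79 in resting cells, a difference of -2.65. Birc5 (-2.46), the protein survivin of dividing cells, and the mitotic kinase gene Plk1 (-2.37) fell. Against isoform A stimulated cells, 4 of the 23 genes were higher and 1 lower in mock cells, against 4.36% and 4.42% of all genes. The interval lay within 0.5 for 15 of the 23, against 72.9% of all genes. In the quiescence and homing list, Pik3ip1, an inhibitor of PI3 kinase, was above background on no mock array and at least 7.78-fold higher in resting cells, and Foxp1 (0.95) and Btg1 (0.79) were the 2 members that rose. Housekeeping genes gave 2 higher and 3 lower of 9, against 31.5% and 37.8% of all genes. Their median of -0.07 hides Tubb5, a tubulin gene, at -1.90 by its brightest probe and 0.06 by another. T cell markers were lower in part: 5 of 8 fell, against 37.8% of all genes, led by Cd3g (-0.74) and Cd3d (-0.60). The summed linear signal of the 8 was 38410 to 41820 in mock cells against 55290 to 56580 in resting cells. The part of that shift in other results was not tested.

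In the interferon-stimulated genes, the list looked at array by array, 1 mock array stood apart. The mock array of mouse 3 was the highest of its group for 16 of the 21 genes, with a median log2 intensity of 9.745 over them, against 8.543, 8.872 and 8.527 on the mock arrays of mice 1, 2 and 4. Among resting arrays, that of mouse 3 was also the highest most often, for 10 of the 21, with a median of 8.736 against 8.38, 8.465 and 8.641 in mice 1, 2 and 4. Among isoform B arrays, that of mouse 2 was the highest for 13 of the 21. The share of all genes for which an array was the highest of its group is not given here. With all arrays, 6 of the genes were higher and 11 lower in mock stimulated than in resting cells (median -0.62), against 31.5% and 37.8% of all genes. Without the mock array of mouse 3, 5 were higher and 13 lower (median -0.81). Rsad2, the antiviral enzyme viperin, had 7.55, 8.43, 10.40 and 7.87 in mock cells, 6.37, 6.64, 7.14 and 6.12 in isoform A stimulated cells and 6.59, 6.70, 6.80 and 6.24 at rest. Mock cells were above both other groups in every mouse. The difference from isoform A was 2.00 (adjusted p = 0.00135) with all arrays and 1.53 (adjusted p = 0.000313) without mock mouse 3.

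Isg15, a ubiquitin-like modifier, had 9.59, 10.21, 11.39 and 9.74 in mock stimulated cells, against 8.04, 8.38, 8.70 and 8.41 in resting cells. It rose by 1.85, and its difference from isoform A of 1.17 (adjusted p = 0.0302) was 0.82 without mock mouse 3 and no longer past the threshold (adjusted p = 0.0955). Ifit3, an interferon-induced RNA-binding protein, had 6.81, 7.41, 9.54 and 6.96 in mock cells, with 5.98, 6.18, 6.65 and 5.97 in isoform A stimulated cells, against 9.16, 9.66, 10.03 and 9.90 in resting cells. So it lay below resting cells in both, and mock cells were higher than isoform A cells (1.48, adjusted p = 0.0116, and 0.97, adjusted p = 0.00256, without mock mouse 3). The call against isoform A was lost without the replicate block. Igtp, an interferon-induced GTPase, had 11.30, 11.75, 11.95 and 11.47 in mock cells, against 13.72, 13.78, 13.77 and 13.78 at rest, and with Psmb9 (-1.47), an immunoproteasome subunit, it fell with an interval against isoform A inside 0.5.

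The same mock array was also highest for Hba-a1, an alpha globin gene, with 6.32, 8.75, 9.87 and 7.77 in mock stimulated cells, against 5.28, 5.94, 6.08 and 5.22 in resting cells. Its difference from isoform A was 2.32 with all arrays and 1.83 (adjusted p = 0.00473) without mock mouse 3, and it was not past the threshold within mice 1 and 2. Of the 7 erythroid and granulocyte markers on the array, Hba-a1 and Car2 were tested, and Hbb-b2, Alas2, S100a8 and S100a9 were above background on no array. The summed linear signal of the 2 ranged from 162 to 1017 in mock cells, from 52.7 to 111 in isoform A stimulated cells and from 27.5 to 60.5 in resting cells, and its part in the results was not tested.

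**Figure D5:**
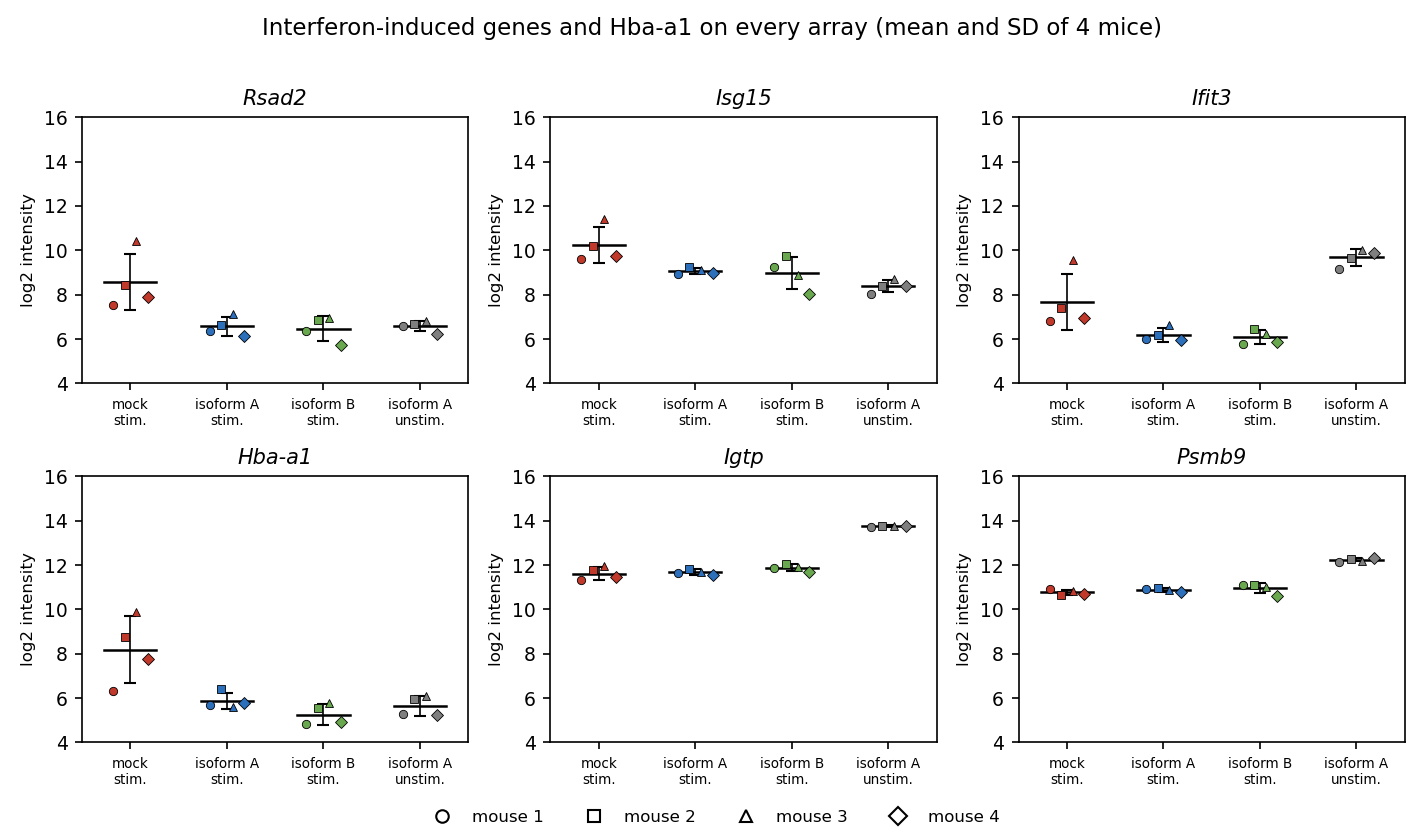
Normalized log2 intensity of 5 interferon-stimulated genes and of Hba-a1 on all 16 arrays, 1 symbol per mouse, with the mean and SD of 4 mice. The mock array of mouse 3 (triangle) stands at 10.40 for Rsad2, 11.39 for Isg15, 9.54 for Ifit3 and 9.87 for Hba-a1, above the other mock arrays.

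The heat shock and unfolded protein list had 18 genes, of which 11 were higher and 4 lower in mock than in resting cells (31.5% and 37.8% of all genes). Against isoform A stimulated cells 5 were higher and 1 lower (4.36% and 4.42% of all genes). Without the mock array of mouse 3 the count lower than at rest was 2. Chac1, which degrades glutathione and is a target of ATF4, rose by 4.24 with an interval against isoform A of -0.40 to 0.04, and Hspa5, the chaperone BiP, rose by 2.29 with an interval of -0.25 to 0.29. Ddit3, the transcription factor CHOP, had 8.95, 9.19, 9.80 and 9.66 in mock stimulated cells, 8.49, 8.20, 8.79 and 8.13 in isoform A stimulated cells and 7.69, 7.40, 7.59 and 7.73 in resting cells. It was higher than in isoform A cells by 1.00 (adjusted p = 0.00131) and than in isoform B cells by 1.05 (adjusted p = 0.00148). Hspa1a, an inducible heat shock protein, was at 6.55, 6.87, 5.66 and 6.34 in mock cells and above background on none of the resting arrays, at least 2.83-fold higher. It was above isoform A cells by 1.38 (adjusted p = 0.00192), and in this case the mock array of mouse 3 was the lowest.

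Further genes whose level was changed by at least 1 in mock cells were higher there than in isoform A stimulated cells. Ramp3 and Lmo2 were also higher there than in isoform B stimulated cells. Ramp3, which modifies G protein coupled receptors, had 8.24, 8.47, 8.27 and 8.42 in mock stimulated cells, 6.92, 7.03, 6.26 and 7.01 in isoform A stimulated cells and 5.19, 4.85, 4.85 and 5.08 in resting cells. It rose 10.2-fold in mock cells and was higher than in isoform A cells by 1.55 (adjusted p = 2.86e-05) and isoform B cells by 1.54 (adjusted p = 9.25e-05), with no overlap. Lmo2, a transcription cofactor of early blood cells, was higher by 1.22 than in each. Rab19, a small GTPase gene, had 5.92, 6.27, 6.52 and 6.39 in mock cells, 5.03, 4.98, 4.92 and 5.09 in isoform A stimulated cells and 8.72, 8.88, 8.88 and 8.84 at rest. Mock cells were thus below resting cells and above isoform A stimulated cells (1.27, adjusted p = 1.31e-05). For the orphan receptor gene Gpr146, mock cells likewise lay between them (1.36 above isoform A stimulated cells, adjusted p = 0.000411).

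On the other side, Cdk5r1, the activator of the kinase CDK5, had 8.10, 8.06, 8.16 and 8.53 in mock stimulated cells, 9.51, 10.17, 10.17 and 9.39 in isoform A stimulated cells and 5.45, 5.53, 5.39 and 5.44 in resting cells. It rose 6.77-fold in mock cells and was lower than in isoform A cells (-1.60, adjusted p = 8.01e-05), while the difference from isoform B was -0.41 (adjusted p = 0.204). Mmp13, a collagenase, rose by 1.68 and was -1.95 against isoform A, although a second probe did not follow it over resting cells (0.08). Mzb1, a chaperone of antibody-secreting cells, was above background on 1 mock array, and its difference from isoform A (-1.94, adjusted p = 0.0284) missed the threshold, at an adjusted p of 0.0687, once mock mouse 3 was left out. The MHC class II genes Cd74 (-1.65) and H2-Ab1 (-1.52) were likewise lower in mock than in isoform A cells, calls lost without mouse 3. The summed signal of the 6 B cell markers tested was 180 to 270 in mock cells, 527 to 941 in isoform A stimulated cells, 307 to 1778 in isoform B stimulated cells and 273 to 416 in resting cells. The part of such transcripts in the result for Mzb1 was not tested.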

How the data were processed

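Per the labels, total RNA of 16 samples was hybridised to 1-colour Illumina mouse bead arrays. The deposited table holds the authors' non-normalized bead intensity and a detection p-value for each of 25697 probes, which the authors made with GenomeStudio 2011.1, per the submitters' processing notes. A second deposited table holds the authors' processed intensity values, whose normalization is not given in the sources used here, and served as an alternative. Intensities were background-corrected and quantile-normalized with neqc of limma 3.58.1 (R 4.3.3, offset 16) and put on the log2 scale. Probes with a detection p under 0.05 on at least 4 arrays were kept (12344, of which 740 had no gene symbol), and the brightest probe stood for a gene, which left 8480 genes, 2201 of them with more than 1 kept probe. Probe names came from GEO's platform annotation, in which 23978 probes had 1 symbol, 0 several and 1719 none.

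A limma model of 4 group means with the mouse as a block was fitted over all 16 arrays (9 residual degrees of freedom), with Benjamini-Hochberg adjustment over all genes at 0.05. The labels give each sample's mouse, the same for all samples of a replicate number, and deviations from group means correlated at 0.167 to 0.312 within the 4 pairs of a mouse's mock and resting arrays, with a mean of 0.242, against a mean of -0.0805 between mice. A gene above background on no array of a group has a bound, "at least", against the lowest signal above background. Named genes were the 12 largest rises and falls with 1 sign in 4 mice, the leading members of each list, the 8 largest differences each way from isoform A, marker genes and CBM genes; others are said to be chosen after their values were seen. Members and lists were chosen with earlier results of these data known. Precision is limited by how many arrays there were. The code was tested on simulated data. List members without a tested probe were not analysed here. Alternatives covered scaling, background, filter, probe choice, block, weights and left-out mice.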

Additional observations from a re-analysis of the deposited data

Results flagged for a closer look

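In 16 of 400 groups of 4 arrays, 1 array lay far from the other arrays of its group by Dixon's test at the 95% level, which chance alone gives in about 1 group in 20. Among mock stimulated cells these were the log2 intensities of Egr2 (13.21, mouse 3), Tnfsf14 (12.78, mouse 2), Sphk1 (10.20, mouse 3), Ypel3 (8.01, mouse 3), Tbc1d10c (8.13, mouse 2), BC147527 (5.72, mouse 3), Nr4a2 (10.26, mouse 2), Cd40lg (9.38, mouse 1), Tnfrsf18 (10.76, mouse 1), Tab3 (8.55, mouse 1), Jak2 (12.67, mouse 3), Socs3 (7.01, mouse 2), Tbp (8.63, mouse 3), Cd247 (10.80, mouse 3) and Prf1 (9.79, mouse 2). Among resting cells it was Igtp (13.72, mouse 1).

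The mock minus isoform A difference of the stimulated arrays passed limma's adjusted p of 0.05 for 59 of the 200 named genes, some of which were named for that difference. Of all genes, 8.79% passed. It was negative (log2) for 31 genes, namely Csf2 (-0.69), Tnfsf14 (-0.31), Sphk1 (-0.74), Bcl2a1d (-0.53), Cd83 (-1.52), Tnip1 (-0.56), Nfat5 (-0.41), Rcan1 (-1.0), Crtam (-0.63), Cd40lg (-0.76), Relb (-0.55), Zc3h12a (-0.56), Tnf (-1.02), Il6st (-0.57), Socs2 (-0.28), Tyk2 (-0.44), Irf4 (-0.55), Zbtb32 (-0.64), Bid (-0.35), Bcl2l1 (-0.68), Ctsw (-0.29), Ccl9 (-3.56), Cd70 (-2.42), Il23a (-2.09), Mmp13 (-1.95), Mzb1 (-1.94), Il10 (-1.65), Cdk5r1 (-1.60), Rnf31 (-0.41), Cd74 (-1.65) and H2-Ab1 (-1.52). It was positive for 28 genes, namely Fam78a (0.42), E2f2 (0.63), Rcan3 (0.38), Osm (0.52), Prkcq (0.27), Tab1 (0.41), Dok2 (0.41), Ptpn6 (0.68), Ubash3a (0.33), Csk (0.32), Bcl6 (0.70), Bcl2 (0.35), Slc7a5 (0.36), Slc2a3 (0.91), Plk1 (0.33), Rsad2 (2.00), Isg15 (1.17), Ifit3 (1.48), Asns (0.40), Ddit3 (1.00), Ddit4 (0.70), Hba-a1 (2.32), Car2 (0.93), Ramp3 (1.55), Hspa1a (1.38), Gpr146 (1.36), Rab19 (1.27) and Lmo2 (1.22).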

How the results depend on the processing

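The count of 5880 genes that differed between mock stimulated and resting cells was 5105 to 5947 over all settings, and 5528 to 5685 without 1 mouse. The count of at least 1 on the log2 scale was 2363 to 2440 without 1 mouse and 1244 with no background correction. The 745 genes that differed between mock and isoform A stimulated cells became 412 without the replicate block, 185 with only the 2 groups compared and the block, 492 under median scaling, 124 in mice 1 and 2, 427 without the mock array of mouse 3 (an alternative chosen after seeing the data) and 239 to 641 without 1 mouse. The 338 that differed from isoform B became 158 without the replicate block, 129 with only the 2 groups and the block, 39 in mice 1 and 2, 51 in mice 3 and 4, 202 without the mock array of mouse 3 and 153 to 192 without 1 mouse. Other settings raised the counts against isoform A and isoform B, to 992 and 457 with no background correction and to 938 and 434 with offset 50. The count for isoform A stimulated against resting cells was 5601 to 5690 without 1 mouse. The cause of these shifts was not tested, beyond the fewer arrays in some fits.

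The mock minus resting difference turned round for Rcan1 (-0.055), Hsp90b1 (0.067) and Ctss (-0.43) under median scaling, and for Hprt (0.011) and Cd8b1 (0.29) with the mean of a gene's probes. Over the named genes and settings, 3299 values kept direction and side of the threshold for mock against resting cells, 65 lost the call and 26 gained it. Against isoform A 3088 kept it, 267 lost it and 40 gained it. The share of genes with an interval within 0.5 ran from 41.5% (mice 3 and 4) to 80.2% (no background correction) among genes that rose, and from 43.7% to 92.2% among those that fell. Signal over background limits genes that a group did not have above background, for which the fold is a bound.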
